A study of Mus musculus with 23 samples.

Results

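Tumors of 3 F1 host lines that the study classed as non-responders (NR) to PD-1 blockade were compared 48 h after a single dose of antibody against PD-1 (aPD1) or of isotype control antibody. The tumors were chosen by host line and antibody alone and made up 11 of the 23 tumors of the series, 5 with aPD1 and 6 with isotype. CC036F1, CC079F1 and CC080F1 are the offspring of C57BL/6J crossed with the Collaborative Cross (CC) strains CC036/UncJ, CC079/TauUncJ and CC080/TauUncJ, which are recombinant inbred strains of mixed founder ancestry. CC036F1 and CC079F1 each gave 2 tumors per antibody, and CC080F1 gave 2 isotype tumors and 1 aPD1 tumor. All hosts were female and 8 to 12 weeks old and carried subcutaneous tumors of MC38, a colon carcinoma line of C57BL/6 origin. The dose was 200 µg, given when a tumor measured 75 to 110 mm3. The 12 tumors of the responder (R) lines CC001F1, CC002F1 and CC075F1 were treated in the same way and serve only as the comparison. The class of a line came from the study's text, not from the sample labels.

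PD-1 is an inhibitory receptor of activated T cells, and its ligand PD-L1 is made by tumor and myeloid cells. T cells released from this brake secrete interferon gamma, which raises the chemokines Cxcl9 and Cxcl10, the interferon-inducible GTPases of the Gbp and Irg families and, through the coactivator Ciita, MHC class II. Type I interferon acts on antiviral genes such as Ifit1, Mx1 and the Oas genes, and genes of both sets can carry interferon-stimulated response elements (ISRE) in their promoters.

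The 11 libraries held 15276128 to 65776443 expected counts (median 39305203), and 4 shallow ones, 3 isotype and 1 aPD1, held 18354585 or fewer. A pair of aPD1 libraries stood apart: CC079F1 replicate 1 and CC080F1 replicate 1 held 339 and 309 counts of Glycam1, a mucin of lymph node vessels, while the other 9 libraries held 0. Several results that rest on these libraries are given with and without them. The epithelial markers of a carcinoma were low on average, with a mean normalized count of 29.4 for the keratin Krt8 and 242 for the cadherin Cdh1. They differed between tumors, with a mean log2 level of the epithelial list from 2.63 to 6.48. It was 6.48 in CC079F1 aPD1 replicate 1 and 6.33 in CC080F1 isotype replicate 1. The adipocyte list was at 6.32 and 6.3 in these tumors, and highest in the CC080F1 aPD1 tumor, at 6.77. A normalized count is the expected count of a gene divided by the size factor of its library. Each tumor is a mixture of MC38 and host cells, so fewer cells of a type and less RNA per cell cannot be told apart. The p-values measure the spread between these tumors, and each line is a single genotype.

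The promoter sequences below are those of antiviral genes and GTPases, the interferon genes described first. They are the 250 bases upstream of the start in the RefSeq annotation of GRCm38.p6, with matches to the ISRE letters (GAAA, any 2 bases, GAAA) on either strand in capitals. Ifit1 (chr19:34640639-34640888, plus strand) and Isg15 (chr4:156200819-156201068, minus strand) stand for the antiviral genes, and Tgtp1 (chr11:48992247-48992496, minus strand) and Igtp (chr11:58199306-58199555, plus strand) for the GTPases. For Isg15 the 3 matches overlap.
Ifit1: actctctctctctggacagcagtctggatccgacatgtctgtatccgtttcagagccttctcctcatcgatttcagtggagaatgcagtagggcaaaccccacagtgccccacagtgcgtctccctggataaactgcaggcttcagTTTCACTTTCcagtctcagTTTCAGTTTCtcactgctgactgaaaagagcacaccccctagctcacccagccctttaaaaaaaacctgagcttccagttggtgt
Isg15: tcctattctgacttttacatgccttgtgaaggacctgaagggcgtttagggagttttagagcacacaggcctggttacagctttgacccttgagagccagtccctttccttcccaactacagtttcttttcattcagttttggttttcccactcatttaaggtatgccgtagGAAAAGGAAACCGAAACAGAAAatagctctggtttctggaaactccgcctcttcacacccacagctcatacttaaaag
Tgtp1: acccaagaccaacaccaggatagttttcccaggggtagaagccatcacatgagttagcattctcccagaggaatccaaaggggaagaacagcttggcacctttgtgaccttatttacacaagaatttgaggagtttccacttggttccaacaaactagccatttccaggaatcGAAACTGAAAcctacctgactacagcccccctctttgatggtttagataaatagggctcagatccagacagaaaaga
Igtp: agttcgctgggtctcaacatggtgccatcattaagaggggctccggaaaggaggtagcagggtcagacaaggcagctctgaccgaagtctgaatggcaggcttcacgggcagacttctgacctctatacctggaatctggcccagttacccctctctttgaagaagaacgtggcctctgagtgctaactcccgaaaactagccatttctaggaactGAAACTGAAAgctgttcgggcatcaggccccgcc
These letters occurred in 978 of 32851 promoter windows (2.98%), in all 10 of the 10 GTPase genes with a window in 8 of 16 antiviral genes, in 0 of 7 MHC class II genes, in 1 of 14 genes of an interferon gamma signature and in 1 of 3 genes of CXCR3 and its ligands. A match is a description of the sequence and not a site shown to be bound.

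The antiviral genes stayed flat. All 22 were held within 1.5-fold by a test of that bound (DESeq2, adjusted p under 0.05), against 44.4% of the 24552 genes tested and 74.6% of the 14614 genes with a mean normalized count of 20 or more. That share was higher among genes with higher counts, and it was not computed at the level of these 22 genes. Ifit1, an RNA-binding antiviral protein, had 1610 and 2147 normalized counts with isotype and 2030 and 1309 with aPD1 in CC036F1, 1609 and 1868 against 1712 and 1477 in CC079F1, and 1752 and 1713 against 1945 in CC080F1. The antibody groups overlapped in CC036F1 and CC079F1, and the change was 0.95-fold (95% interval 0.81 to 1.12). Isg15, a ubiquitin-like modifier, changed 0.93-fold (0.76 to 1.15), the transcription factor Irf7 1.01-fold (0.90 to 1.14) and Mx1, a GTPase that blocks viral entry and replication, 0.86-fold (0.71 to 1.04). The highest estimate of the 22 was that of Oas3, a sensor of double-stranded RNA, at 1.18-fold (0.99 to 1.40). The median log2 change of the 22 genes was -0.05, with -0.16 in CC036F1, -0.11 in CC079F1 and 0.15 in CC080F1, beside 0.83 in the R lines.

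The GTPases and the MHC class II, CXCR3 and interferon gamma signature genes were mostly not bounded in this way, and their medians differed in sign by line. Of the 11 genes of an interferon gamma pathway list, 9 were held within 1.5-fold, near the 74.6% of genes with a mean normalized count of 20 or more. The medians of that list were 0.24, 0.05 and -0.01 in CC036F1, CC079F1 and CC080F1. Of 15 GTPases, 14 were higher with aPD1 in CC036F1, 13 in CC079F1 and 1 in CC080F1, where 51.1%, 50.0% and 48.2% of the 14614 genes of that level were higher. None was called, and 3 of 15 were held within 1.5-fold. Tgtp1, a GTPase that attacks pathogen vacuoles, had 572 and 889 normalized counts with isotype and 1810 and 1396 with aPD1 in CC036F1. It had 386 and 559 against 587 and 1125 in CC079F1, and 1085 and 330 against 559 in CC080F1. The groups were separate in CC036F1 and CC079F1, whereas the CC080F1 aPD1 tumor lay between the 2 isotype tumors. Igtp had log2 changes of 0.70, 0.73 and -0.38 in the 3 lines, and Gbp2b 1.35, 1.77 and -2.07. The median of the list was 0.28, at 0.10 to 0.42 when any 1 tumor was left out, 0.57 without the libraries that held Glycam1 and 0.004 in the deep libraries alone.

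**Figure D1:**
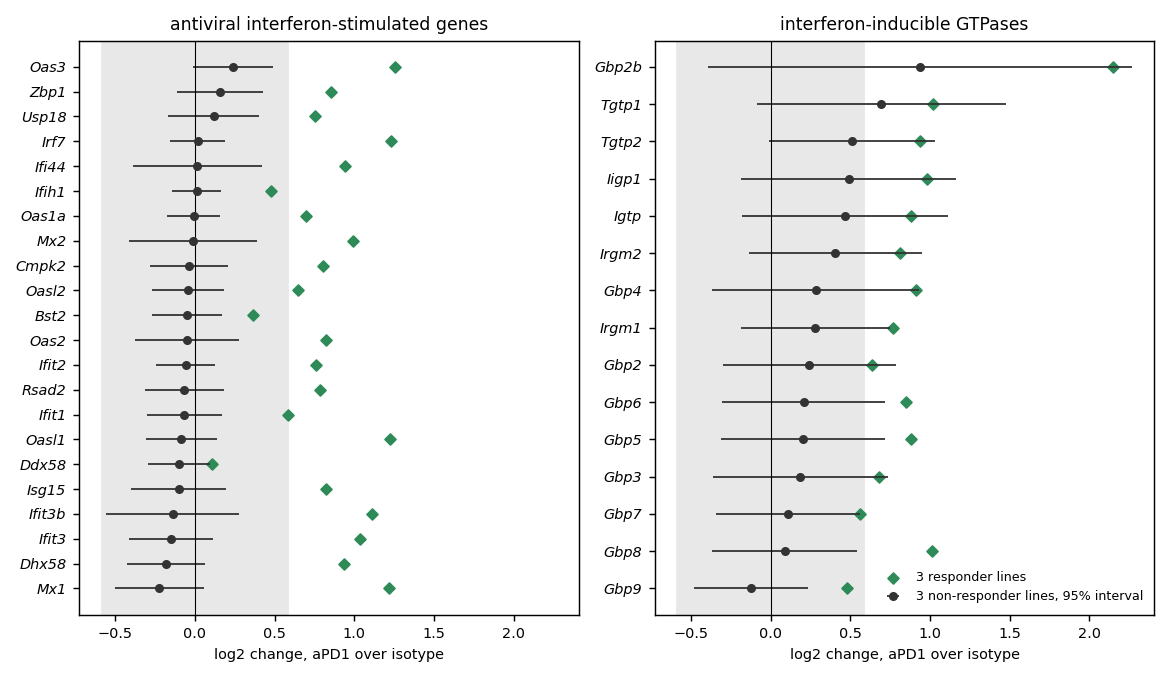
Log2 change with aPD1 of 22 antiviral genes and 15 interferon-inducible GTPases in the 3 NR lines (circles with 95% intervals, 11 tumors) and the 3 R lines (diamonds, no interval drawn). The grey band is 1.5-fold either way; the NR circles of the antiviral genes lie inside it, between -0.22 and 0.24.

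MHC class II and the CXCR3 chemokines showed the same split of lines by the median. By the mean log2 level, the CC080F1 aPD1 tumor lay between the isotype tumors of that line. These levels were 10.1 and 9.05 with isotype against 10.02 with aPD1 for class II. For CXCR3 and its ligands they were 8.65 and 7.72 against 8.11. In CC080F1, 4 of 10 class II genes were higher with aPD1. The 10 class II genes had a median log2 change of 0.47 in CC036F1, 0.89 in CC079F1 and -0.54 in CC080F1, with 4 of them at an unadjusted p under 0.05 and higher (3.17% of all genes were) and none called. H2-Ab1, a chain of the peptide-presenting molecule, had 3200 and 1971 against 4273 and 3237 normalized counts in CC036F1, 1483 and 2629 against 3490 and 4210 in CC079F1, and 7464 and 3223 against 3414 in CC080F1. All 4 aPD1 tumors of CC036F1 and CC079F1 were above their isotype tumors. Cxcl9, which attracts CXCR3-bearing T cells, had log2 changes of 0.83, 1.15 and -1.08. CC080F1 isotype replicate 1 was the highest isotype tumor for both H2-Ab1 and Cxcl9, with 7464 and 6231 normalized counts. Without it, the median of the 18 genes of an interferon gamma signature list was 0.56, beside 0.36 with it and 0.18 without CC079F1 isotype replicate 1. For MHC class I presentation, beside 74.6% of genes with a mean normalized count of 20 or more, 12 of 13 genes were held within 1.5-fold. Among them were B2m at 1.00-fold (0.88 to 1.13) and H2-K1 at a log2 change of 0.02.

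**Figure D2:**
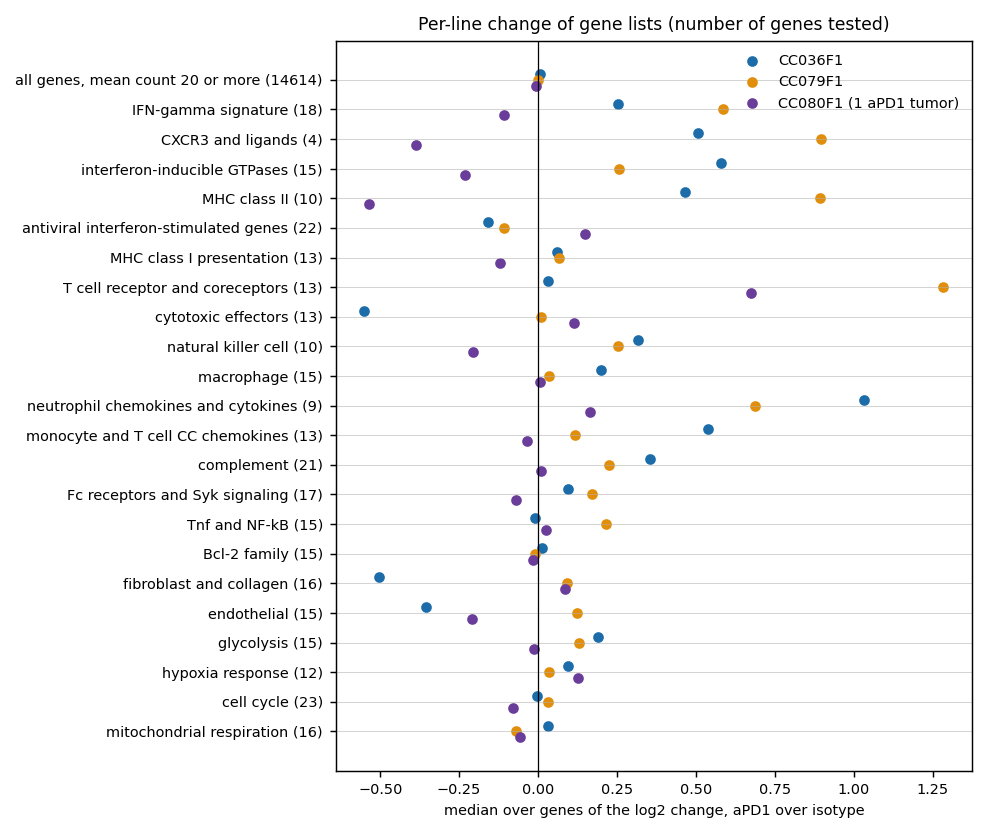
Median over the genes of each list of the log2 change, aPD1 over isotype, in CC036F1, CC079F1 and CC080F1 (1 aPD1 tumor), with the number of genes tested in parentheses. For MHC class II the points sit at 0.47, 0.89 and -0.54, while the points for the cell cycle and mitochondrial respiration sit between -0.08 and 0.03.

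The pooled median change was positive for T cell receptor transcripts and negative for effector transcripts, whose median was negative in CC036F1 only. The difference between the lists was not tested. Of 13 T cell receptor and coreceptor genes, 3 were higher at an unadjusted p under 0.05 and none was called. These were Lck, the kinase that starts receptor signaling, and the receptor chains Cd247 and Cd3e. Lck had 92.1 and 81.5 normalized counts with isotype against 133 and 108 with aPD1 in CC036F1, 62.1 and 103 against 196 and 202 in CC079F1, and 294 and 104 against 363 in CC080F1. The aPD1 tumors were above the isotype tumors in each line, a separation shared by 1.08% of all genes, and the change was 1.82-fold (95% interval 1.28 to 2.59, adjusted p = 0.32). The list median was 1.28 in CC079F1, 0.67 in CC080F1 and 0.03 in CC036F1, and the pooled 0.64 was 0.23 without the libraries that held Glycam1. The 13 cytotoxic effector genes had a median of -0.22, with none at p under 0.05, beside 0.81 in the R lines, and the value was 0.13 without CC036F1 isotype replicate 2. Gzmb, a granzyme of killer cells, changed 0.94-fold (0.73 to 1.2) and was held within 1.5-fold, and the perforin gene Prf1 changed 0.86-fold (0.52 to 1.42). Ifng itself was at 7.51 to 45.3 normalized counts in all tumors, with log2 changes of 1.03, -0.65 and -1.15 in the 3 lines.

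Among the receptors and ligands of the checkpoint, Pdcd1, which encodes PD-1, had 63.3 and 27.4 normalized counts with isotype against 107 and 47.2 with aPD1 in CC036F1, 26.5 and 3.51 against 52.6 and 47.5 in CC079F1, and 197 and 36.1 against 148 in CC080F1. The groups overlapped in CC036F1 and CC080F1, and the change of 1.97-fold (1.05 to 3.71) was not called (adjusted p = 0.87). Cd274, which encodes PD-L1, had log2 changes of 0.91, 0.34 and -0.16. Havcr2, the receptor Tim-3, was held within 1.5-fold at 1.02-fold (0.84 to 1.24). The cytokine receptor chains Il2rb and Csf2rb, which serve IL-2 and IL-15, and GM-CSF, IL-3 and IL-5, were both held within 1.5-fold, at 1.06-fold (0.84 to 1.34) and 1.21-fold (1.02 to 1.44). Csf2rb was higher in CC036F1 (0.53) and CC079F1 (0.37) and lower in CC080F1 (-0.29).

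Across all genes, 11 were called at an adjusted p under 0.05 (0.0448% of 24552), 10 of them higher with aPD1 (0.0407%), and edgeR called 5 (0.0204%). C3, the central component of complement (chr17:57203970-57228136, GRCm38), was called by both tools. It had 1055 and 950 normalized counts with isotype and 1688 and 1766 with aPD1 in CC036F1, 573 and 480 against 1839 and 1208 in CC079F1, and 1398 and 670 against 1710 in CC080F1. The groups did not overlap in any line. C3 rose 2.07-fold (95% interval 1.48 to 2.89), with an adjusted p of 0.0476 in DESeq2 and 0.0384 in edgeR, and the adjusted p in DESeq2 was 0.22 without CC036F1 aPD1 replicate 2. Its log2 change was 0.69 in the R lines. In a fit of all 23 tumors, 10 genes were called for the NR lines and 0 of them were among the 11, with adjusted p-values of 0.303 for C3, 0.683 for Syk, 0.321 for Cd24a, 0.0615 for Gm15085 and 0.979 for Gm8995. The number of calls was 6 or 2 when CC036F1 aPD1 replicate 1 or 2 was left out, 23 and 61 without CC036F1 isotype replicate 1 or 2, 42 and 30 without CC079F1 isotype replicate 1 or 2, 52 and 74 without CC079F1 aPD1 replicate 1 or 2, 139 without CC080F1 isotype replicate 1 and 242 without the CC080F1 aPD1 tumor.

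Syk, a kinase downstream of Fc receptors and the B cell receptor (chr13:52583173-52648792), rose 1.36-fold (1.19 to 1.55, adjusted p = 0.0177). It had 837 and 815 against 1318 and 1163 normalized counts in CC036F1, 880 and 1188 against 1363 and 1414 in CC079F1, and 1140 and 1034 against 1279 in CC080F1. The groups were separate in every line, the adjusted p was 0.135 without CC036F1 aPD1 replicate 1, and edgeR gave 0.105. Of the 17 genes of the Fc receptor and Syk signaling list, 15 were held within 1.5-fold, and the list median was 0.06. Among genes with a mean normalized count of 20 or more, 74.6% were held. Cd24a, a surface sialoglycoprotein of several cell types including B cells (chr10:43578284-43584265), rose 2.61-fold (1.72 to 3.95, adjusted p = 0.0177). Its 11 values overlapped in CC036F1, at 34.5 and 43.1 against 41.4 and 77.3, and were separate in CC079F1, at 39.3 and 24.5 against 149 and 111, and in CC080F1, at 85.6 and 60.9 against 228.5. Its adjusted p was 0.33 without the libraries that held Glycam1. The gene model Gm15085 (chrX:149447617-149487784) was the call that fell, at 0.57-fold (0.45 to 0.74, adjusted p = 0.0476), with 365 and 283 against 138 and 140 in CC036F1, 250 and 233 against 151 and 121 in CC079F1, and 197 and 149 against 158 in CC080F1. The adjusted p of Gm15085 was 0.32 without CC036F1 aPD1 replicate 2.

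The remaining 7 calls were Gm8995, at 1.34-fold (1.19 to 1.52, adjusted p = 0.00963), and 6 genes with counts near 0 in some groups. Gm38220 had 0 and 0.78 normalized counts with isotype against 71.8 and 130 with aPD1 in CC036F1 and 0.91 and 0 against 31.6 and 47.5 in CC079F1, but 42.1 and 70.0 with isotype against 35.6 in CC080F1. Its change differed among the lines (adjusted p = 0.00106). The immunoglobulin light chain gene Iglc1 was at 0 in every isotype tumor and at 0.55, 0.54, 8.26, 7.91 and 77.8 in the aPD1 tumors. The heavy chain variable genes Ighv8-12, Ighv14-1, Ighv1-85 and Ighv1-14 had 42.2, 43.0, 57.1 and 79.5 in the aPD1 tumor of CC080F1 and at most 0.75 in any other. Immunoglobulin variable genes share sequence, so reads may be split between them, and these calls rest on 1 tumor.

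**Figure D3:**
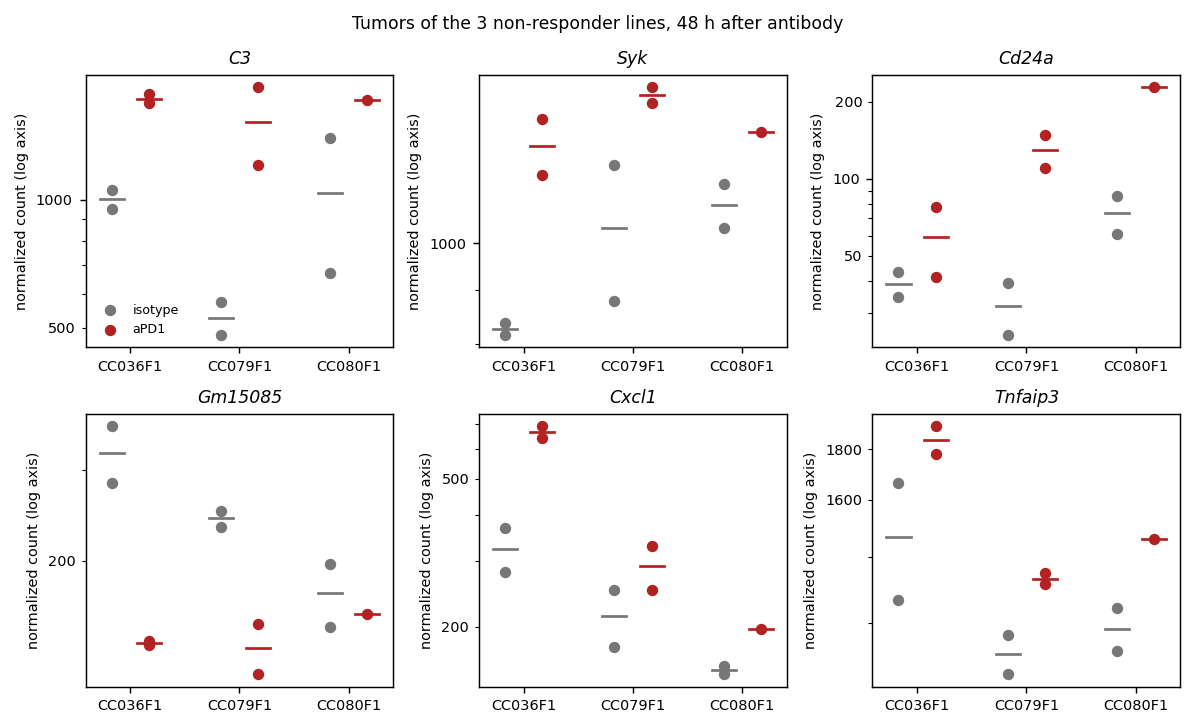
Normalized counts (log axis) of C3, Syk, Cd24a, Gm15085, Cxcl1 and Tnfaip3 in the 11 NR tumors by host line, isotype in grey and aPD1 in red, with bars at the group means. For C3 the aPD1 points lie above the isotype points in each line; for Gm15085 they lie below in CC036F1 and CC079F1 but between the isotype points in CC080F1.

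B cell transcripts were high in the tumors that also held lymph node transcripts. Of 16 B cell genes, 10 were higher at an unadjusted p under 0.05, and the list median was 2.52, with 4.66 in CC080F1, 2.87 in CC079F1 and 0.06 in CC036F1. The summed normalized count of the list was 1364 to 1837 in the isotype tumors and 1422 to 1474 in 3 aPD1 tumors, but 3508 in CC079F1 aPD1 replicate 1 and 8202 in CC080F1 aPD1 replicate 1. Ms4a1, which encodes CD20, had 162 and 354 in these 2 tumors and 0 to 13.5 in the other 9. Pax5, the factor that fixes B cell identity, had 170.5 and 396, beside 3.51 to 37.0. The lymph node list summed to 485 and 729 in the same tumors, beside 3.51 to 30.7, although its vessel marker Madcam1 was at 0 and 0.83 there. Without both libraries the B cell median was 0.24, the plasma cell median went from 2.96 to 1.02, and the lymph node median went from 2.88 to -0.47. The part of lymph node tissue in these values was not tested.

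**Figure D4:**
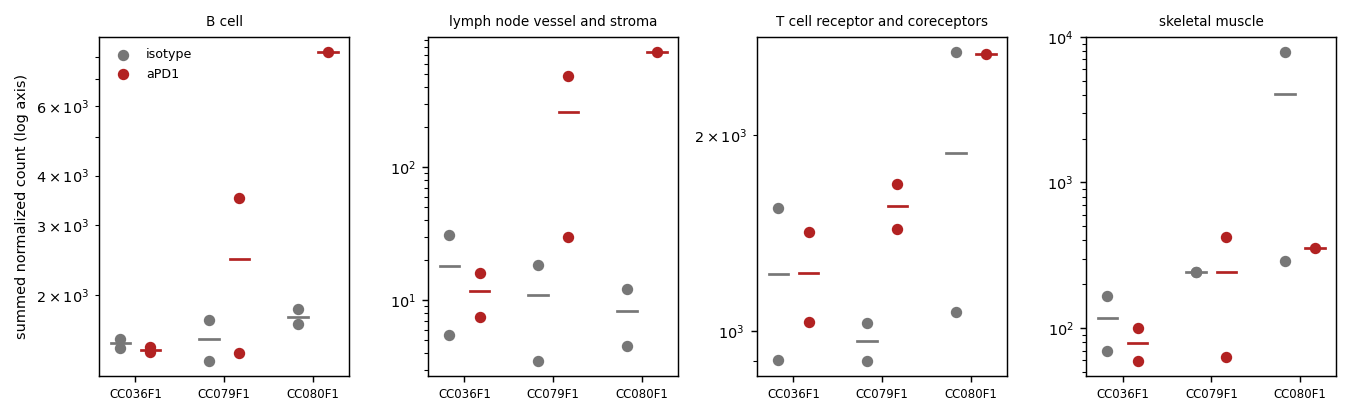
Summed normalized count (log axes) of the B cell, lymph node, T cell receptor and skeletal muscle lists in each NR tumor by line, isotype in grey and aPD1 in red, with bars at the group means. The B cell and lymph node sums are highest in the aPD1 tumor of CC080F1 (8202 and 729), and the muscle sum in CC080F1 isotype replicate 2 (7838).

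Members of several myeloid lists were higher at an unadjusted p under 0.05, with 4 of 15 macrophage genes, 4 of 12 genes of neutrophils and granulocytic MDSC, 2 of 6 genes of type 2 dendritic cells and 7 of 21 complement genes, beside 3.17% of all genes. For type 1, mature migratory and plasmacytoid dendritic cells it was 0 of 8, 1 of 10 and 1 of 6. Without the libraries that held Glycam1, the type 2 median went from 0.53 to 0.19 and the plasmacytoid median from 0.51 to -0.12. The neutrophil and MDSC list had medians of 1.16, 0.22 and 0.16 in CC036F1, CC079F1 and CC080F1. Its pooled 1.06 was 0.265 without CC036F1, and 5 of its 12 genes had counts in all tumors. Of 9 neutrophil chemokines and cytokines, 4 were higher at an unadjusted p under 0.05 and none was called. Immediate early and heat shock genes moved with them, with 4 of 11 higher at that level. The mean log2 level of that list was 9.65 and 9.79 with isotype against 9.96 and 10.22 with aPD1 in CC036F1, 9.29 and 9.5 against 9.61 and 9.68 in CC079F1, and 9.58 and 9.5 against 9.59 in CC080F1. By this mean level the list was higher with aPD1 without overlap in every line, if narrowly in CC080F1. Its median log2 change did not keep 1 sign, at 0.23, 0.17 and -0.02 for the lines in the same order. In CC080F1, 5 of the 11 genes were higher and 6 lower. The share of lists separated by mean level was not computed. The part of these genes in the chemokine result was not tested. Cxcl1, which recruits neutrophils through CXCR2, had 280 and 368 normalized counts with isotype against 642 and 691 with aPD1 in CC036F1, 176 and 251 against 251 and 330 in CC079F1, and 157 and 149 against 197 in CC080F1. The groups were separate in each line, if narrowly in CC079F1, and the change was 1.58-fold (1.27 to 1.97, adjusted p = 0.0933). Without the libraries that held Glycam1 it was called (adjusted p = 0.0017). Il1a, an alarmin cytokine, changed 2.38-fold (1.49 to 3.81), Cxcl2 2.05-fold (1.25 to 3.35) and Il1b 1.61-fold (1.19 to 2.18), each with an adjusted p of 0.19 or more. The Cxcl1 promoter (chr5:90890995-90891244, plus strand) is printed because 4 of 7 genes of this list with a window held the NF-kB letters GGG, any 2 bases, TT, any base, CC (capitals), beside 1274 of 27025 genes overall (4.71%).
Cxcl1: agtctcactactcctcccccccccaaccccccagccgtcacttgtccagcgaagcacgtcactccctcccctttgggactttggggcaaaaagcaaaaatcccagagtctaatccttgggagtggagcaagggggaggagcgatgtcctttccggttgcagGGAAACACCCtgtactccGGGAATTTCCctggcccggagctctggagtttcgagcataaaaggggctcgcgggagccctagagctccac

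Of 21 complement genes, 7 were higher at an unadjusted p under 0.05, 1 (C3) was called and 11 were held within 1.5-fold. Cfp, which encodes the C3 convertase stabilizer properdin, changed 1.34-fold (1.15 to 1.55, adjusted p = 0.16) with log2 changes of 0.56, 0.56 and -0.03 in the 3 lines. C1qa was flat, with a log2 change of 0.00 (SE 0.11). Beside 74.6% of genes with a mean normalized count of 20 or more, 13 of 15 genes of Tnf and NF-kB signaling were held within 1.5-fold. Tnfaip3, a feedback inhibitor of NF-kB, was among them and yet was higher in each line without overlap, at 1.22-fold (1.09 to 1.36, adjusted p = 0.26). Of 15 genes of the Bcl-2 family, 12 were held within 1.5-fold, near the 74.6% of genes of that level. Bcl2l11, which encodes the death-promoting protein Bim, was lower with aPD1 without overlap in every line, as 0.721% of all genes were. It had 689 and 800 normalized counts against 639 and 652 in CC036F1, 829 and 794 against 602 and 573 in CC079F1, and 873 and 831 against 820 in CC080F1, or 0.83-fold (0.74 to 0.94, unadjusted p = 0.0038, adjusted p = 0.55). In all, 2.19% of genes were lower at that unadjusted level. The 15 macrophage genes had a median of 0.06, and 10 of them were held within 1.5-fold, below the 74.6% of genes of that level.

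Cell cycle, glycolysis and mitochondrial respiration genes stayed flat. All 23 cell cycle genes, 15 glycolysis genes and 16 mitochondrial respiration genes tested were held within 1.5-fold. For hypoxia response genes it was 9 of 12, near the 74.6% of genes with a mean normalized count of 20 or more. Mki67, a proliferation marker, changed 0.95-fold (0.86 to 1.06). Of the glycolysis genes, 4 were higher at an unadjusted p under 0.05 within that bound, among them hexokinase Hk2 at 1.19-fold (1.04 to 1.36). Fibroblast and collagen genes had a median log2 change of -0.50 in CC036F1 and 0.09 in both other lines, with 7 of 16 held within 1.5-fold. Skeletal muscle transcripts differed by tumor piece, with a summed normalized count of 7838 in CC080F1 isotype replicate 2 and 59.7 to 423 in the other 10 tumors.

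CC036F1 and CC079F1 on their own gave more calls than the 3 lines together. So did each other pair of lines, with 29 calls without CC036F1 and 104 without CC079F1. For most of the genes called in CC036F1 and CC079F1, CC080F1 had the opposite sign. With the 8 tumors of CC036F1 and CC079F1 alone, 300 genes were called (2.02% of 14851), 177 higher and 123 lower with aPD1. In CC080F1, which this fit did not use, 126 of the 177 and 111 of the 123 had changes of the opposite sign, with medians of -0.09 and 0.17 beside 0.46 and -0.51 in the 2 lines. Of all genes with a mean normalized count of 20 or more, 48.2% had a change above 0 in CC080F1. These CC080F1 values rest on 1 aPD1 tumor against 2 isotype tumors, and 13 of the 300 genes were among those called in the test of the difference among lines that follows. The members of the fixed lists among the higher calls were Cd274, Ido1, Gbp2b, Tgtp1, Tgtp2, Ciita, Lck, Csf2rb, Csf2rb2, Fcgr4, Syk, C3, Cfp, Cfd, C5ar1, Serping1, Itgb2, Cxcl1, Il1a, Il1b, S100a9, Lcn2, Ccl8, Glycam1, Pfkp, Slc16a3 and Hspa1b, and those among the lower calls were Bmf, Dcn and Pdgfra. Among the 8 tumors, Glycam1 had counts only in CC079F1 aPD1 replicate 1.

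Pik3r3, Fcgr4 and Ly6a are examples of these calls, and their groups were separate in both lines. Pik3r3, a regulatory subunit of PI3 kinase, had 1115 and 1075 normalized counts against 657 and 668 in CC036F1 and 1437 and 1507 against 762 and 884 in CC079F1, but 877.5 and 1144 against 1256 in CC080F1. Fcgr4, an activating receptor for IgG, had 397 and 392 against 1095 and 586 in CC036F1, 260 and 223 against 517.5 and 742 in CC079F1, and 1204 and 571 against 590 in CC080F1. Ly6a, an interferon-inducible surface protein also called Sca-1, had 1025 and 1193 against 2627 and 1622 in CC036F1, 529 and 498 against 1167 and 1617 in CC079F1, and 3274 and 1061 against 1459 in CC080F1. For Fcgr4 and Ly6a the highest isotype tumor was CC080F1 replicate 1, the tumor that was also highest for Cxcl9. Tgm2, a protein cross-linking transglutaminase, had a log2 change of 0.83 over CC036F1 and CC079F1 and -0.15 in CC080F1, and Anpep, an aminopeptidase of myeloid and stromal cells, 0.89 and -0.57. Without CC080F1 isotype replicate 1, the fit of all 3 lines called 139 genes, and without the aPD1 tumor of CC080F1 it called 242.

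**Figure D5:**
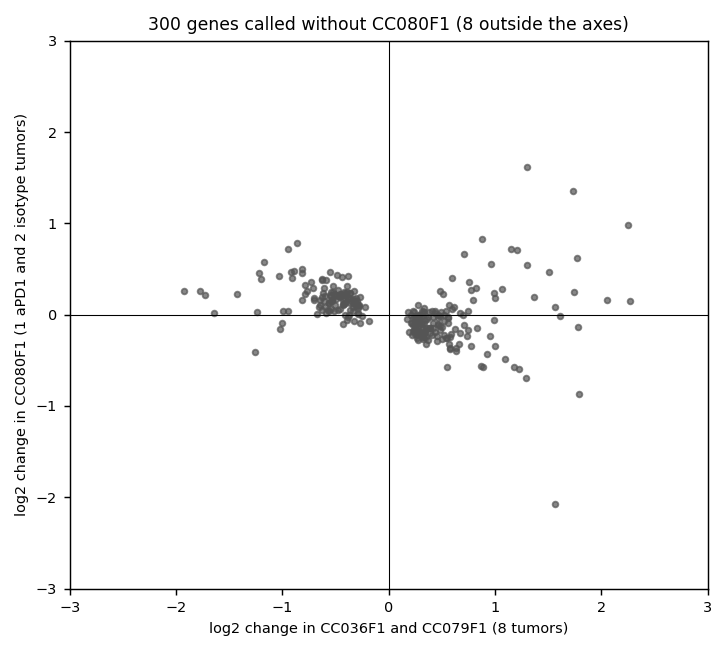
Log2 change with aPD1 of the 300 genes called in CC036F1 and CC079F1 (horizontal) and their log2 change in CC080F1 (vertical), 1 point per gene, with 8 genes beyond the axis limits of 3. Most points lie in the upper left and lower right, with 111 of 123 lower genes above 0 and 126 of 177 higher genes below 0 in CC080F1.

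A likelihood ratio test of the line by antibody terms called 32 genes (0.194% of 16460), for which the change differed among the NR lines. Gm28048 had log2 changes of 0.31, -1.57 and -1.52 in CC036F1, CC079F1 and CC080F1 (adjusted p = 1.93e-07), with 174, 174 and 173 normalized counts in the aPD1 tumors of the last 2 lines and 401 to 559 in the other 8 tumors. Car3, a carbonic anhydrase abundant in fat and muscle, had changes of -0.14, 3.62 and 0.54 (adjusted p = 0.000756), and Eln, which encodes elastin, had -1.31, 1.31 and 0.49 (adjusted p = 0.00139). Gm6136 had 0.51, 1.41 and -1.70 (adjusted p = 0.00139), and Pik3r3 had -0.72, -0.85 and 0.33 (adjusted p = 0.005). The amino acid transporters Slc7a5 and Slc7a1 were also called, at 0.09, 0.51 and -0.29 and at 0.27, 0.66 and -0.11. Adipocyte transcripts moved with Car3, with list medians of 0.01, 3.32 and 0.46, and their part in that result was not tested. The pooled adipocyte median of 1.58 was 0.34 without the libraries that held Glycam1. Of the GTPase, MHC class II, CXCR3 and antiviral genes described above, none was called by this test, so their split among lines was not shown to exceed the spread between tumors. The count was 7 without the CC080F1 aPD1 tumor, which leaves 2 lines, 9 without CC079F1 isotype replicate 2, 59 and 53 without CC036F1 isotype replicate 1 or 2, 101 without CC080F1 isotype replicate 2, 207 without CC036F1 aPD1 replicate 1 and 9 without the libraries that held Glycam1.

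The change in NR lines was tested against that in R lines over all 23 tumors, and 11 genes differed (0.0418% of 26342), whereas edgeR called 0 and had 1932 at an unadjusted p under 0.05. Of the antiviral genes, the change was lower in NR than in R lines for 22 of 22, at an unadjusted p under 0.05 for 21, where 4.48% of all genes were, and Dhx58, an RNA sensor, was called (difference of log2 changes -1.11, SE 0.25, adjusted p = 0.0276). On the scale of all 23 tumors, Dhx58 ranged from 522 to 983 normalized counts (median 784) in NR isotype and 562 to 821 (median 629) in NR aPD1 tumors, and from 511 to 708 (median 586) in R isotype and 682 to 1770 (median 1020) in R aPD1 tumors. Bcl2l11 differed by -0.67 (SE 0.13, adjusted p = 0.00513), with 780 to 984 and 650 to 928 normalized counts in NR and 759 to 1110 and 913 to 1530 in R tumors, isotype before aPD1. Tnf, the inflammatory cytokine, differed by -1.31 (SE 0.30, adjusted p = 0.0276), with medians of 226 and 211 in NR and 227 and 480 in R tumors. Rbm12b1, an RNA-binding protein, differed by 0.60 (SE 0.14, adjusted p = 0.0276), with medians of 572 and 668 in NR and 725 and 540 in R tumors. Cr2, a complement receptor of B cells, differed by 4.04 (adjusted p = 0.0109). In the fit of NR tumors it had 147 and 239 normalized counts in the 2 NR tumors that held Glycam1 and 11 to 36.1 in the other 9. In the R lines its log2 change was -2.04. On the scale of all 23 tumors, Cr2 ranged from 9.21 to 208 in R isotype and from 2.57 to 16.9 in R aPD1 tumors. An R isotype library, CC002F1 replicate 1, also held Glycam1 (387 counts). The other 6 calls, Glycam1, Art4, Ucp1, Gm6184, Gm27254 and Gm29125, had mean normalized counts of 41.7 or less and fits without bounds, and their folds are not given. The count was 5 without the CC080F1 aPD1 tumor, 6 without CC036F1 aPD1 replicate 2 or CC080F1 isotype replicate 1, 17 without CC080F1 isotype replicate 2, 32 without CC079F1 aPD1 replicate 2, 34 without CC079F1 isotype replicate 1, 38 without CC079F1 aPD1 replicate 1 and 45 without CC036F1 isotype replicate 2.

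The ratio of Cxcl9 to Spp1, which encodes the macrophage protein osteopontin, did not separate the antibodies. It was 0.609 and 0.16 with isotype against 0.962 and 0.181 with aPD1 in CC036F1, 0.0881 and 0.25 against 0.221 and 0.499 in CC079F1, and 0.853 and 0.294 against 0.284 in CC080F1. The groups overlapped in CC036F1 and CC079F1, while the CC080F1 aPD1 tumor was just below both isotype tumors. The mean log2 difference was 0.42, 1.16 and -0.82 in the 3 lines and 0.25 over them (two-sided exact permutation within lines, p = 0.70 over 108 assignments, of which the smallest possible p was 0.00926). Spp1 itself was held within 1.5-fold at 1.04-fold (0.73 to 1.48).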

How the data were processed

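Poly(A) RNA of 23 tumors was sequenced, and 11 tumors of the NR lines were analysed here. The authors mapped reads with Bowtie 1.2.3 to transcriptomes of the CC founder strains on GRCm38 and deposited estimated counts per gene, summed over founder haplotypes and not scaled for depth. These expected counts were rounded to whole numbers. Genes with at least 5 counts over the tumors of a fit were tested with DESeq2 1.42.0 (R 4.3.3), with host line and antibody as terms and Benjamini-Hochberg adjustment. A change was called held within 1.5-fold when a test of that bound had an adjusted p under 0.05. Differences among lines used the likelihood ratio test of the line by antibody terms, and differences from R lines the antibody by class term. The lone CC080F1 aPD1 tumor was taken to vary like the other groups. An alternative was edgeR 4.0.16 (quasi-likelihood test, TMM). Of 26869 genes, 188 had no symbol in the annotation used here. Members, the 41 gene lists and the tests were chosen with earlier results of these data known. Named genes were all calls, up to 5 calls per difference test with a mean normalized count of 100 or more, up to 4 genes per list by p and 2 flat genes per list by level, and 7 genes of the study's question. Outside this rule, and chosen after their values were seen, were Anpep, Art4, B2m, Gbp2b, Gm27254, Gm29125, Gm6184, H2-Ab1, Ido1, Ifit1, Igtp, Irf7, Isg15, Itgb2, Ly6a, Madcam1, Ms4a1, Pax5, Pdgfra, Prf1, S100a9, Serping1, Slc7a1, Slc7a5, Tgm2 and Ucp1. The steps were tested on simulated data.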

Additional observations from a re-analysis of the deposited data

Results flagged for a closer look

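Within the 5 aPD1 or the 6 isotype tumors, 9 of 38 groups of values tested held a tumor far from the rest, where chance gives about 1 in 20. Genes entered because they were called, some of them through 1 high tumor, so the share cannot be read against that rate. The aPD1 tumor of CC080F1 was the highest for Ighv8-12 (42.2 normalized counts), Ighv14-1 (43.0), Ighv1-85 (57.1), Ighv1-14 (79.5) and Iglc1 (77.8). CC079F1 aPD1 replicate 2 was the lowest aPD1 tumor for C3 (1210). CC036F1 aPD1 replicate 2 was the highest aPD1 tumor for Spp1 (15800). CC080F1 isotype replicate 1 was the highest isotype tumor for Pdcd1 (197) and for Il2rb (711).

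The change with aPD1 differed among the NR lines for 32 genes. Adjusted p-values were 1.93e-07 for Gm28048, 0.000756 for Car3, 0.00139 for Gm6136, 0.00139 for Eln and 0.005 for Pik3r3. Between NR and R lines it differed for 11 genes, with differences of log2 changes, NR minus R, of -0.67 for Bcl2l11, 0.60 for Rbm12b1, -1.11 for Dhx58 and -1.31 for Tnf.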

How the results depend on the processing

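The 11 calls between aPD1 and isotype became 10 in a fit of all 23 tumors, which shared 0 with the 11, 5 with edgeR, 7 with TMM scaling, 4 with a stricter count filter (10 counts in 5 libraries), 44 in the deep libraries, 67 with depth class as a term, 101 without the libraries that held Glycam1, and 29, 104 and 300 without CC036F1, CC079F1 and CC080F1. Chosen after seeing the data, edgeR with the stricter filter gave 0 (1039 at an unadjusted p under 0.05), edgeR without the CC080F1 aPD1 tumor 60, and the stricter filter without the Glycam1 libraries 111. Leaving out 1 tumor gave 2 to 242. The 32 calls among lines became 9 with edgeR, 9 without the Glycam1 libraries and 10 with the stricter filter as well, and 7 to 207 without 1 tumor. The 11 calls between NR and R lines became 0 with edgeR, 5 with the stricter filter, 55 in the deep libraries and 77 with depth class as a term. They became 24 without the 3 Glycam1 libraries of the series, of which CC002F1 isotype replicate 1 is from an R line. With the stricter filter and without only the 2 NR Glycam1 libraries there were 3, and without 1 NR tumor 5 to 45. Tumors of the R lines were not left out singly. The genes held within 1.5-fold stayed within 1.5 times the 10896 reported under each alternative run.

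Same-numbered tumors correlated at 0.136 in CC036F1 and 0.017 in CC079F1, so the replicate numbers were not taken to pair tumors. With the replicate block there were 12 calls between aPD1 and isotype, 10494 genes held within 1.5-fold, 112 calls among lines and 21 between NR and R lines. The log2 difference of the Cxcl9 to Spp1 ratio was -0.002 with the replicate block and -0.201 without CC079F1, and without 1 tumor it ranged from -0.148 to 0.79, with -0.067 without CC036F1 isotype replicate 2, -0.148 without CC036F1 aPD1 replicate 1 and -0.002 without CC080F1 isotype replicate 2. For the genes of the lists and the calls, 12187 values of the alternative runs kept their status, either called or not called. Most of these genes were not called to begin with, so that count does not measure how stable the calls were. Another 139 values gained a call and 112 lost one, and 0 changed direction after a call. The cause of these shifts was not tested. With 1 aPD1 tumor in CC080F1, a change in that line has no replicate of its own.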

Other observations

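In isotype tumors the antiviral genes were at a higher level in the NR lines than in the R lines, while the GTPases, MHC class II and T cell receptor genes were at a lower level. The mean log2 level over NR lines exceeded that over R lines for 19 of 22 antiviral genes (86.4%), and for 11 of 22 (50.0%) every NR line was above every R line, beside 47.5% and 10.6% of the 14879 genes with a mean normalized count of 20 or more. On the scale of all 23 tumors, Ifit1 had 1820 to 2420 normalized counts (median 1960) in NR isotype tumors and 1070 to 1620 (median 1200) in R isotype tumors, and the groups did not overlap. With aPD1 the R tumors reached a median of 1720, and the NR tumors stayed at 1930. Isg15 had medians of 858 and 788 in NR isotype and aPD1 tumors, beside 553 and 913 in R tumors. By contrast, 1 of 15 GTPases, 1 of 10 MHC class II genes and 0 of 13 T cell receptor and coreceptor genes were higher in NR isotype tumors. These levels are given as a description, since tumors of a line share a genotype and each class holds 3 lines.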
